A study of Mus musculus with 8 samples.

Results

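The 49 genes described here make or control cell division: 10 act in S phase, when DNA is copied, 4 govern G1 and entry into S phase, and 35 act in G2, mitosis and cytokinesis. They were picked by gene symbol from the study's table of 17164 genes, in which every one of the 49 was present. RNA was sequenced from 8 liver samples of male C57BL/6 mice, 2 chosen at random from each of 4 groups of 6, and every mouse was killed at 22 weeks of age. The control group was injected with saline at 2 weeks and carried no other agent in the study's description, which names no vehicle for the later injections. The model group received diethylnitrosamine (DEN, 0.67%) at 2 weeks, and from 8 weeks carbon tetrachloride (CCl4, 20% in olive oil) 2 times a week to the end. Both treated groups had the same DEN and CCl4 and, from 17 weeks, DWYG, the Diwu Yanggan capsules of the series title: DWYG-M at the clinical equivalent dose and DWYG-H at 2 times that dose. DEN is a carcinogen that alkylates DNA in hepatocytes, and CCl4 is converted by hepatocytes into a radical that kills them, so the combination joins a mutagen to repeated injury and regrowth. The sources used here do not say whether tumour nodules or the tissue around them were taken.

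Cyclin-dependent kinases (CDKs) drive the cell cycle when bound to cyclins. D and E cyclins release E2F factors from the RB family in G1, and E2F then turns on replication genes, while FOXM1 and MYB proteins on the MuvB core turn on mitotic genes later. Adult liver is largely quiescent and its hepatocytes re-enter the cycle after injury or loss of mass, so mitotic transcripts are scarce in healthy liver. In bulk RNA, fewer cells of a type and less RNA per cell cannot be told apart.

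Libraries held 17345627 to 19191382 reads assigned to genes, and 10101 to 11556 genes per library reached 1 FPKM (a level corrected for gene length and library size). Hepatocyte markers, a check of the label liver, were high in every library (8 genes summing to 54533 to 95469.7 FPKM), with a median log2 change of -0.08 in the model. The groups were compared with edgeR's quasi-likelihood test on read counts scaled by TMM, in 1 model of 8 libraries, for genes at 1 FPKM or more in at least 2 libraries. A gene is said to have risen or fallen where the p-value adjusted by Benjamini-Hochberg over all genes was below 0.05. Fold changes are log2 values with their standard error (SE), and levels are FPKM of replicate 1 and replicate 2 of a group, in that order. FPKM values are not rescaled between libraries: in the model the median gene was 0.21 above control on log2(FPKM + 1) and -0.01 after TMM. The study's description does not state that the 2 samples of a group, called livers here, came from separate mice, so p-values measure only the spread between these 8 samples, which may in part be technical.

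Cell division genes were far higher in DEN plus CCl4 liver than in control liver, and mitotic genes by more than replication genes. Among the 47 members that passed the filter on low levels, 41 rose and 0 fell, against 15.1% of the 11606 genes tested that rose and 7.12% that fell. Over all genes that is 1756 higher and 826 lower, and 2471 and 225 with limma on log2(FPKM + 1); no member was called lower on either scale. The filter touches this count: 30 of the 47 were under 1 FPKM in both control livers and passed through the other groups, so the fit without the filter, which holds every member, is given beside it. In that fit 42 of 49 rose, where 12.9% of 17127 genes rose, and the median log2 fold change of the 49 was 2.85, against 0.03 over all genes. By class, the unfiltered fit called 6 of 10 S phase genes (median 0.95), 2 of 4 G1 genes (median 1.41) and 34 of 35 mitotic genes (median 3.44). The calls lean on the control livers: most were lost without control replicate 2, and fewer without control replicate 1 or model replicate 2. Calls over all genes also fell in these fits, which leave 1 liver in a group. With any 1 library left out, the log2 fold changes of the 41 genes stayed above 0, from 0.59 (Mcm3) to 6.24 (Hmmr). Of the 41 genes, 18 were called whichever library was left out, 16 of them mitotic and 2 of S phase, Mcm6 and Rrm2.

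**Figure D1:**
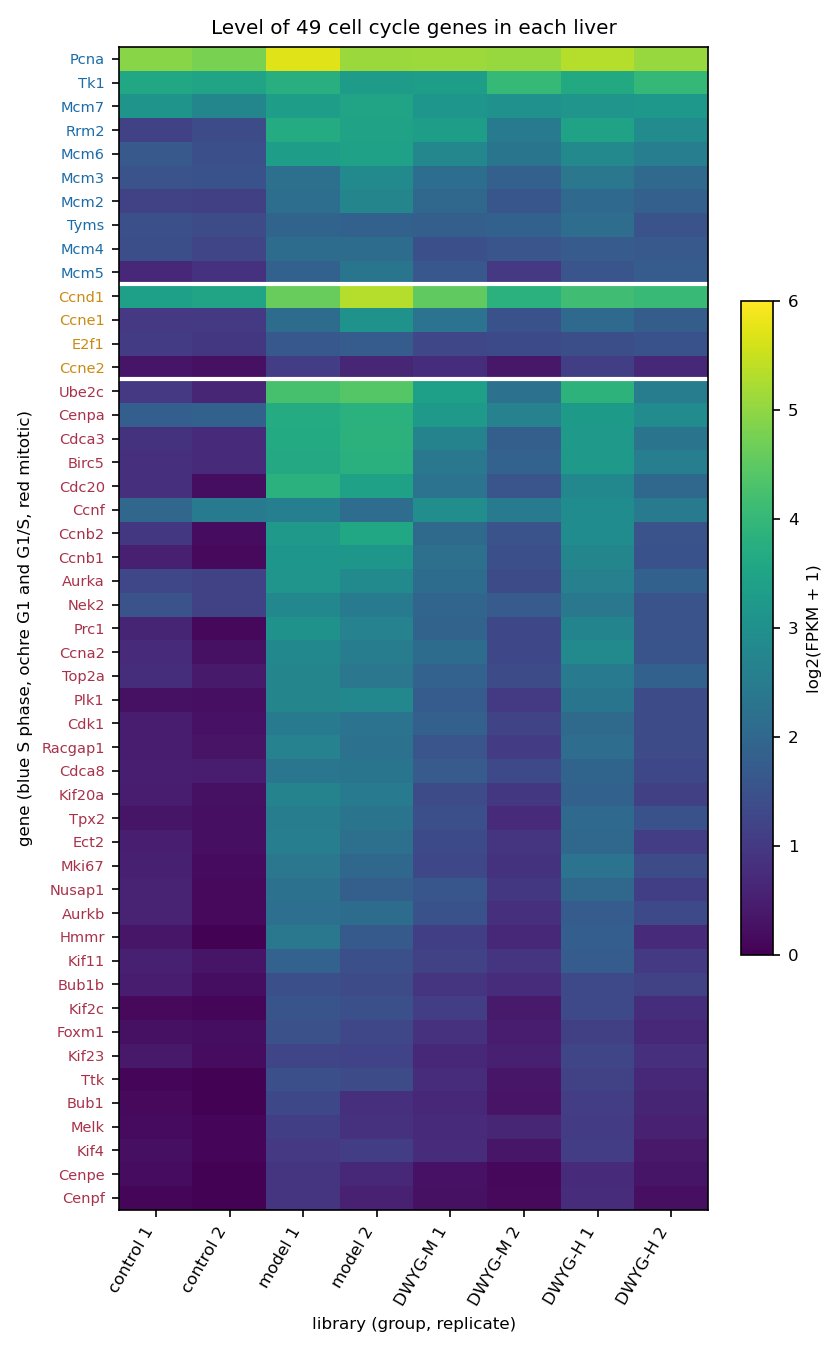
Level of each of the 49 genes (rows, grouped by class and ordered by mean level) in each of the 8 livers (columns), as log2(FPKM + 1) on a colour scale from 0 to 6. Mitotic rows other than Ccnf are brighter in both model livers than in both control livers, though Ccna2 is brightest in DWYG-H replicate 1 (6.33 FPKM), and Pcna is the brightest row of all, at 26.5 to 51.1 FPKM.

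Ki-67 and topoisomerase II alpha, the usual tissue labels of cycling cells, were at the low end of detection in control liver. Mki67 was at 0.44 and 0.13 in control liver, 4.23 and 3.1 in model liver, 1.45 and 0.84 at the medium dose and 3.84 and 1.6 at the high dose. Its model livers lay at the top and its controls at the bottom, with DWYG-H replicate 1 inside the model range. Mki67 rose in the model by 3.43 ± 0.59 (SE) on the log2 scale (edgeR adjusted p = 0.00661), and between 2.81 and 4.52 with any 1 library left out. Top2a, the enzyme that untangles sister chromatids, was at 0.73 and 0.35 in control liver, 5.62 and 4.2 in model liver, 2.69 and 1.62 at the medium dose and 4.46 and 2.65 at the high dose. No control liver overlapped any other group, and Top2a rose by 2.90 ± 0.40 (SE) in the model (adjusted p = 0.00304).

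CDK1 and its cyclins form the engine of mitotic entry. Cdk1 was at 0.4 and 0.23 in control liver, 4.67 and 3.88 in model liver, 2.57 and 1.33 at the medium dose and 3.2 and 1.59 at the high dose, so that both model livers stood above all 6 others and both DWYG-M livers lay between model and control. Its rise in the model was 3.49 ± 0.47 (SE) (adjusted p = 0.00272). Ccnb1, a cyclin partner of CDK1, was at 0.44 and 0.12 in control liver and 7.94 and 8.05 in model liver, a rise of 4.55 ± 0.72 (SE) (adjusted p = 0.005). Ccnb2 was at 0.95 and 0.14 in control liver, 8.54 and 10.9 in model liver, 3.19 and 1.92 at the medium dose and 6.57 and 1.9 at the high dose and rose by 3.89 ± 0.78 (SE) (adjusted p = 0.0119). The 2 control livers differed most for this cyclin, with 21 reads in replicate 1 and 3 in replicate 2. Ccna2, the cyclin of S phase and G2, rose by 3.4 ± 0.70 (SE) (adjusted p = 0.0133). Without control replicate 2 the calls of Ccnb2 and Ccna2 were lost (adjusted p = 0.0731 and 0.0924).

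Ccnf was the exception among the mitotic genes tested. It encodes cyclin F, which recruits substrates to an SCF ubiquitin ligase and binds no CDK. Ccnf was at 2.96 and 4.49 in control liver, 5.05 and 3.41 in model liver, 6.7 and 4.53 at the medium dose and 6.6 and 4.43 at the high dose, and the control and model livers overlapped. Its fitted change in the model was -0.11 ± 0.32 (SE) (adjusted p = 0.847), a value whose sign turned with the scaling and with the library left out. Ccnf was also the most abundant mitotic member in control liver, with 149 and 216 reads.

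The chromosomal passenger complex, which corrects faulty spindle attachments and then directs cytokinesis, rose in its 3 subunits among the 49 genes and in its scaffold, Incenp, which is not one of them (2.01 ± 0.44 (SE), adjusted p = 0.0171, up to 0.0715 without 1 library). Birc5 (survivin) was at 0.76 and 0.64 in control liver, 11.3 and 12.9 in model liver, 4.32 and 2.71 at the medium dose and 8.3 and 4.94 at the high dose. The order of groups was clear for this gene, since the 2 model livers were highest, the 4 DWYG livers intermediate and the 2 controls lowest. Birc5 rose by 3.56 ± 0.39 (SE) in the model (adjusted p = 0.00143). Cdca8 (borealin) was at 0.42 and 0.4 in control liver, 4.1 and 4.07 in model liver, 2.31 and 1.49 at the medium dose and 2.8 and 1.45 at the high dose and rose by 3.03 ± 0.44 (SE) (adjusted p = 0.00362). Aurkb, the kinase of the complex, was at 0.49 and 0.11 in control liver, 3.54 and 3.38 in model liver, 1.86 and 0.74 at the medium dose and 2.35 and 1.51 at the high dose and rose by 3.22 ± 0.63 (SE) (adjusted p = 0.0109). The call of Aurkb was lost without control replicate 2, in which it had 3 reads (adjusted p = 0.0672). Birc5 and Cdca8 stayed below 0.05 with each library left out.

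Mitotic kinases outside that complex also rose, over a wide range of size. Plk1, which acts from centrosome maturation to cytokinesis, was at 0.2 and 0.18 in control liver, 5.69 and 5.92 in model liver, 2.33 and 1.03 at the medium dose and 4.01 and 1.57 at the high dose. All 6 livers given DEN and CCl4 exceeded the controls, and Plk1 rose by 4.62 ± 0.64 (SE) in the model (adjusted p = 0.00288). Aurka, the kinase of spindle poles, was at 1.44 and 1.25 in control liver, 7.73 and 6.19 in model liver, 3.38 and 1.57 at the medium dose and 5.11 and 2.61 at the high dose and rose by 2.10 ± 0.43 (SE) (adjusted p = 0.0135), but not without control replicate 1 or 2 (adjusted p up to 0.0901). Nek2, a kinase that parts the centrosomes, was at 1.92 and 1.25 in control liver, 5.99 and 4.65 in model liver, 2.88 and 2.31 at the medium dose and 4.25 and 1.91 at the high dose, and DWYG-H replicate 2 fell within the control range. Nek2 had the smallest rise of the mitotic genes called, 1.49 ± 0.38 (SE) (adjusted p = 0.0271), and lost its call whichever of the 4 libraries was left out (adjusted p up to 0.157). The checkpoint kinase Ttk stood at the other end with 4.93 ± 0.73 (SE) (adjusted p = 0.00378) from 3 and 1 reads in the control livers, so its size depends on the prior count of the fit.

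Genes of the mitotic ubiquitin machinery were among the most abundant mitotic transcripts. Ube2c, the ubiquitin-conjugating enzyme of the anaphase-promoting complex, was at 1.01 and 0.57 in control liver, 18 and 20.3 in model liver, 9.38 and 3.76 at the medium dose and 13.8 and 4.7 at the high dose. Its model level was the highest of the 35 mitotic genes, and its DWYG-H livers lay on either side of DWYG-M replicate 1. Ube2c rose by 4.33 ± 0.69 (SE) in the model (adjusted p = 0.00513; 0.0531 without control replicate 2). Cdc20, the activator of the same complex, was at 0.79 and 0.16 in control liver and 13.2 and 9.72 in model liver and rose by 4.30 ± 0.62 (SE) (adjusted p = 0.00343). Cdca3, which promotes mitotic entry, was at 0.85 and 0.67 in control liver, 11.8 and 13.6 in model liver, 5.42 and 2.53 at the medium dose and 8.47 and 3.99 at the high dose and rose by 3.62 ± 0.49 (SE) (adjusted p = 0.00273). For both Cdc20 and Cdca3 the 2 model livers were highest and the 2 controls lowest, and the DWYG-M and DWYG-H livers between them overlapped.

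Motors, spindle proteins and centromere proteins followed. All 5 mitotic kinesins were called, from 2.14 for Kif23 to 4.06 for Kif2c. Kif4, a kinesin of chromosomes and the midzone, was at 0.18 and 0.06 in control liver, 1.01 and 1.12 in model liver, 0.7 and 0.28 at the medium dose and 1.12 and 0.33 at the high dose. The model livers were not above DWYG-H replicate 1, and the rise of Kif4 in the model, 2.78 ± 0.74 (SE) (adjusted p = 0.0319), was lost without control replicate 1 or 2 or model replicate 2 (adjusted p up to 0.166). All 6 spindle and midzone genes rose, between 3.12 for Nusap1 and 4.10 for Prc1, the bundler of midzone microtubules. Nusap1 was at 0.48 and 0.11 in control liver, 3.83 and 2.54 in model liver, 2.06 and 0.95 at the medium dose and 3.08 and 1.15 at the high dose, and Hmmr, a spindle protein, at 0.28 and 0.03 in control liver, 4.3 and 2.23 in model liver, 1.15 and 0.62 at the medium dose and 2.49 and 0.64 at the high dose. Both had few reads in control replicate 2 (5 and 2), and without it their adjusted p rose to 0.102 and 0.0877. Cenpa, the histone H3 variant that marks centromeres, was at 2.45 and 2.63 in control liver, 11.9 and 13.1 in model liver, 8.41 and 5.34 at the medium dose and 8.58 and 6.49 at the high dose and rose by 1.99 ± 0.29 (SE) (adjusted p = 0.00378). Control liver already held 51 and 53 reads of it, and the DWYG livers lay between the other groups. Cenpe and Cenpf, which link kinetochores to microtubules, stayed under 1 FPKM in every liver and did not pass the filter; both were called higher in the unfiltered fit.

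FOXM1 is the transcription factor that turns on many of the mitotic genes above. Foxm1 itself was low, at 0.2 and 0.16 in control liver, 1.79 and 1.44 in model liver, 0.81 and 0.4 at the medium dose and 1.2 and 0.61 at the high dose. Its model livers were above all others and its controls below, and it rose by 2.87 ± 0.48 (SE) (adjusted p = 0.00586; 0.0553 without control replicate 2).

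**Figure D2:**
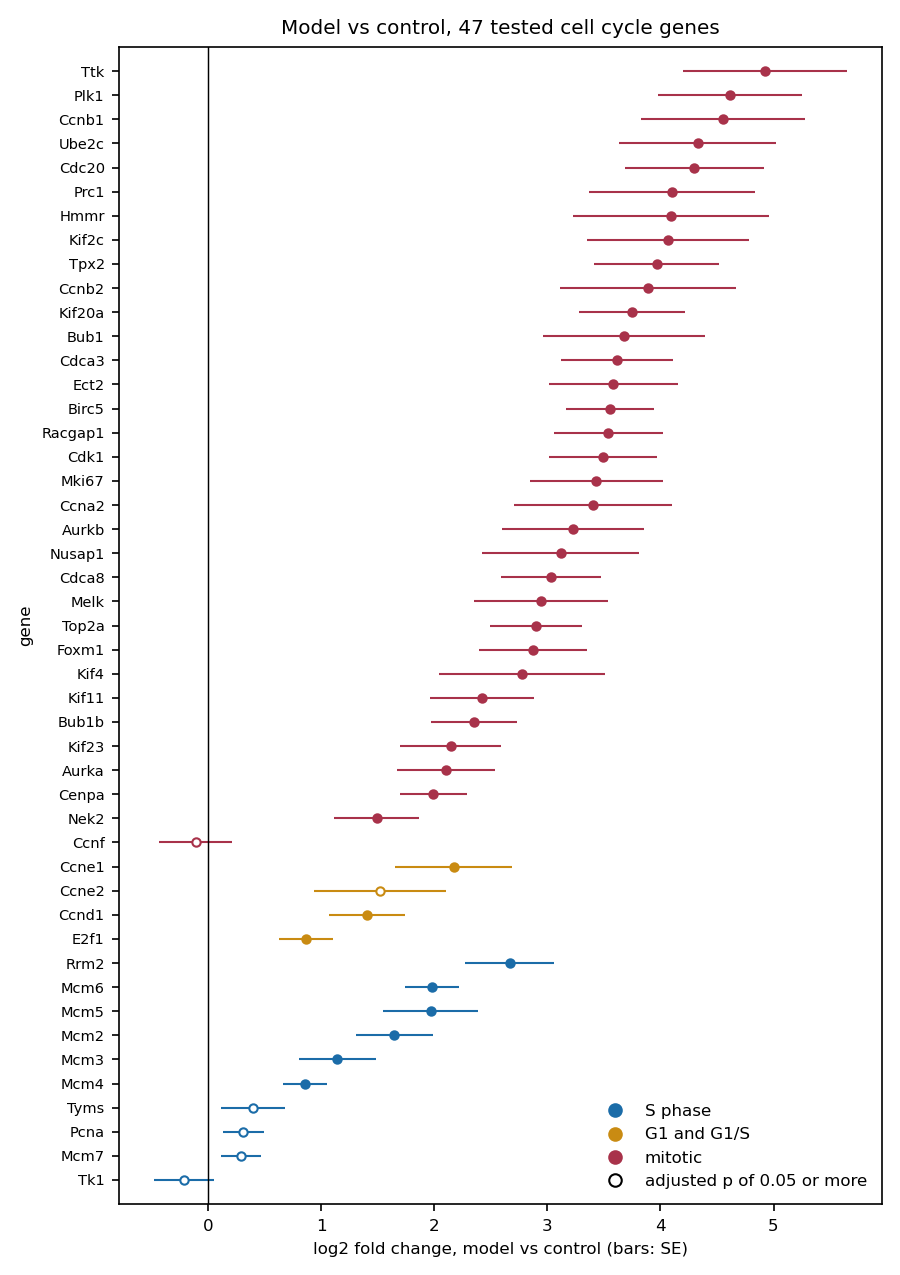
Log2 fold change of model over control for the 47 members tested, with bars of 1 SE, coloured by class; open circles have an adjusted p of 0.05 or more. Mitotic genes lie between 1.49 (Nek2) and 4.93 (Ttk) except Ccnf at -0.11, whereas S phase genes lie between -0.21 (Tk1) and 2.67 (Rrm2).

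Of the 10 S phase genes 6 rose and 4 were not called. Rrm2, the regulated subunit of ribonucleotide reductase that makes DNA precursors, was at 1.25 and 1.59 in control liver, 11.9 and 9.98 in model liver, 9.33 and 4.51 at the medium dose and 10 and 6.46 at the high dose. Every liver given DEN and CCl4 was above both controls, and Rrm2 had the largest rise of the class, 2.67 ± 0.39 (SE) (adjusted p = 0.00379). Mcm6, a subunit of the MCM helicase that opens DNA at replication forks, was at 2.19 and 1.76 in control liver, 9.18 and 9.89 in model liver, 5.88 and 4 at the medium dose and 6.06 and 4.94 at the high dose, without overlap between model and the other groups. It rose by 1.98 ± 0.24 (SE) (adjusted p = 0.00189). The other helicase subunits called were Mcm5 (1.97 ± 0.42 (SE)), Mcm2 (1.65 ± 0.34 (SE)), Mcm3 (1.14 ± 0.34 (SE)) and Mcm4 (0.86 ± 0.19 (SE)), with adjusted p from 0.0138 to 0.046. Each of these 4 lost its call without control replicate 1 or without control replicate 2, and Mcm3, Mcm4 and Mcm5 also without model replicate 2 (adjusted p up to 0.217).

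Mcm7, Pcna, Tyms and Tk1 were not called. Mcm7, the sixth helicase subunit, was at 7.63 and 5.8 in control liver, 9.29 and 10.4 in model liver, 7.89 and 7.16 at the medium dose and 7.69 and 8.18 at the high dose, with both model livers highest. Its fitted change was 0.29 ± 0.18 (SE) (adjusted p = 0.282), against 0.86 to 1.98 for the other 5 subunits. Pcna, the sliding clamp of DNA polymerases that also serves repair, was at 29.3 and 26.5 in control liver, 51.1 and 33.4 in model liver, 33.6 and 32.5 at the medium dose and 39.2 and 32.7 at the high dose, and model replicate 1 stood alone at the top. Its change was 0.31 ± 0.18 (SE) (adjusted p = 0.252). Tyms, thymidylate synthase, was at 1.75 and 1.64 in control liver, 2.81 and 2.64 in model liver, 2.54 and 2.62 at the medium dose and 3.43 and 1.9 at the high dose, with a change of 0.40 ± 0.28 (SE) (adjusted p = 0.359). Tk1, the thymidine kinase of dividing cells, was at 10.8 and 10.3 in control liver, 12.9 and 8.83 in model liver, 9.21 and 15.3 at the medium dose and 11.5 and 14.9 at the high dose, and the control range lay inside the model and DWYG-M ranges, with both DWYG-H livers just above control. The fitted change of Tk1 was -0.21 ± 0.27 (SE) (adjusted p = 0.614), with a sign that turned on the FPKM and TPM scales. Pcna, Tk1 and Mcm7 were the most abundant S phase genes in control liver, at 5.80 to 29.3 FPKM.

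G1 regulators moved by amounts between those of the other classes. Ccnd1, cyclin D1, was at 9.53 and 10.3 in control liver, 23.4 and 39 in model liver, 22.2 and 13.3 at the medium dose and 16.9 and 15.7 at the high dose. Both model livers were above every other liver, and model replicate 2 was well above replicate 1. Ccnd1 rose by 1.40 ± 0.34 (SE) (adjusted p = 0.0227). Ccne1, cyclin E1, was at 0.98 and 1.03 in control liver, 3.37 and 7.3 in model liver, 3.84 and 1.87 at the medium dose and 3.16 and 2.41 at the high dose, again highest in model replicate 2, while DWYG-M replicate 1 lay inside the model range. Ccne1 rose by 2.17 ± 0.51 (SE) (adjusted p = 0.0219). E2f1, which activates replication genes, was at 1.09 and 0.96 in control liver, 2.16 and 2.33 in model liver, 1.42 and 1.56 at the medium dose and 1.7 and 1.83 at the high dose, without overlap between the model and any other group. E2f1 rose by 0.87 ± 0.24 (SE) (adjusted p = 0.0347), a call lost in the unfiltered fit and by DESeq2. Ccne2, cyclin E2, was at 0.26 and 0.21 in control liver, 1.14 and 0.57 in model liver, 0.73 and 0.3 at the medium dose and 1.16 and 0.59 at the high dose, and its change of 1.52 ± 0.58 (SE) missed the threshold (adjusted p = 0.1002). The calls of Ccnd1, Ccne1 and E2f1 were lost without control replicate 1, control replicate 2 or model replicate 2, with adjusted p up to 0.116, 0.109 and 0.158.

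The class levels show the same contrast library by library. Mean log2(FPKM + 1) over the 35 mitotic genes was 0.62 and 0.41 in the control livers, 2.41 and 2.22 in the model, 1.60 and 1.10 at the medium dose and 2.08 and 1.35 at the high dose. Over the 10 S phase genes it was 2.08 and 2.00, 3.02 and 3.07, 2.69 and 2.48, and 2.83 and 2.66 in the same order. The mitotic level minus the S phase level was therefore -1.46 and -1.60 in control, -0.61 and -0.85 in the model, -1.09 and -1.38 at the medium dose and -0.74 and -1.31 at the high dose. Model livers were apart from control and from DWYG-M on this difference, while the 2 DWYG-H livers reached from inside the model range almost to the controls. In reads, mitotic genes took 54.4 and 36.0 CPM (counts scaled to library size) in control and 437 and 359 in the model, and S phase genes 85.8 and 76.7 against 177 and 175. The median ratio of mean FPKM, model over control, was 13.6 for mitotic genes (from 1.14 for Ccnf to 33.9 for Ttk) and 2.39 for S phase genes (from 1.03 for Tk1 to 7.70 for Rrm2). The FPKM added was closer, with a median of 3.74 per mitotic gene and 3.08 per S phase gene, and the median control level was 0.295 FPKM for mitotic and 1.79 for S phase genes. These levels are descriptions of chosen genes and carry no p-value.

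**Figure D3:**
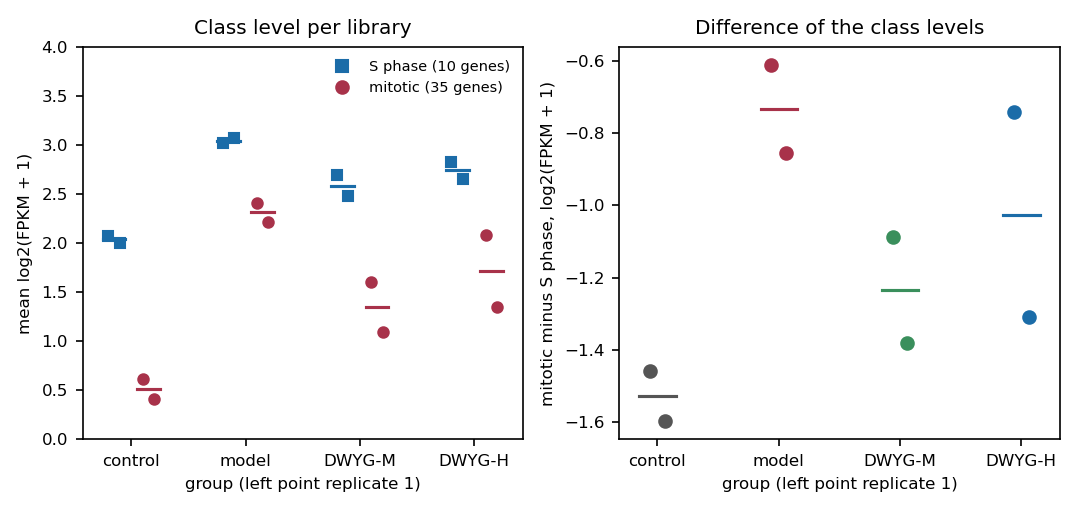
Left, mean log2(FPKM + 1) of the 10 S phase genes (squares) and the 35 mitotic genes (circles) in each liver, with a bar at the mean of the 2 livers; right, the mitotic level minus the S phase level. The mitotic level moves over 0.41 to 2.41 and the S phase level over 2.00 to 3.07, and the difference is smallest in size in model replicate 1 (-0.61) and largest in control replicate 2 (-1.60).

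The promoters of the 2 classes differ in short sequence elements. RefSeq (GRCm38.p6) gave a 300-base window, 250 bases before the start and 50 after, for 41 of the 49 genes (44 windows: 10 of S phase genes, 2 of G1 genes and 32 of mitotic genes). The cell cycle homology region (CHR, letters TTTGAA on either strand), to which the MuvB core binds, was present in 25 of 32 mitotic windows (78.1%), 1 of 10 S phase windows (10%) and 17.9% of all 32851 windows. Before the start alone, the stretch planned for the search, the shares were 37.5%, 10% and 16.0%. Only the CHR was also counted over the whole window. The CCAAT box, to which NF-Y binds, was common to both classes before the start, at 87.5% of mitotic and 80% of S phase windows against 33.8% of all. E2F letters (TTTCCCGC, TTTGGCGC, TTTCGCGC or TTTGCCGC, either strand, before the start) were in 3 of 10 S phase windows (30%), 1 of 32 mitotic windows (3.12%) and 1.86% of all. A match is a description of the letters and no evidence of binding, and these shares were not tested.

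The stretches below, in the gene's own direction, are shown because they carry these elements in 4 mitotic and 2 S phase genes; capitals mark CHR, CCAAT box and E2F letters on either strand. Cdk1 (chr10:69352913-69353052, minus strand) has 2 CHR, 2 CCAAT and 1 E2F match, Cdc20 (chr4:118437344-118437423, minus) and Ube2c (chr2:164769829-164769928, plus) each 1 CHR and 2 CCAAT. Ccnf (chr17:24251410-24251559, minus), the mitotic gene that was not called, holds 2 CHR and 2 CCAAT, as the stretch of Cdk1 does. Not all mitotic genes that rose are alike in this: 11 of 32 mitotic windows (34.4%) held both elements before the start, against 5.55% of all. Mcm6 (chr1:128359706-128359825, minus) has 3 E2F and 2 CCAAT matches and Mcm5 (chr8:75109349-75109508, plus) 2 of each, with no CHR; in both, 2 E2F matches on opposite strands overlap in 1 run of capitals.
Cdk1: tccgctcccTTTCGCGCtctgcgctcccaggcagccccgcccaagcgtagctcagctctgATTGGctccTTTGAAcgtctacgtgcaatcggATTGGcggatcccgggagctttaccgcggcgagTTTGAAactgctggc
Cdc20: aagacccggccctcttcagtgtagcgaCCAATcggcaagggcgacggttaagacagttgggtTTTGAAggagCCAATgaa
Ube2c: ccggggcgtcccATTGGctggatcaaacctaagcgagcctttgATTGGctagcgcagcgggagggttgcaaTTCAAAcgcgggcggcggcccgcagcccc
Ccnf: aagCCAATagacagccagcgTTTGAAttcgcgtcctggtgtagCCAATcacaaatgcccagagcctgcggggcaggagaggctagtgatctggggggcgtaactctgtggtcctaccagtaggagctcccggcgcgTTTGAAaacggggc
Mcm6: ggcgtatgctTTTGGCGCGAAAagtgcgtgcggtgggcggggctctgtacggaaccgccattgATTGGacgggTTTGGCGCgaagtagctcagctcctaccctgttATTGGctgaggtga
Mcm5: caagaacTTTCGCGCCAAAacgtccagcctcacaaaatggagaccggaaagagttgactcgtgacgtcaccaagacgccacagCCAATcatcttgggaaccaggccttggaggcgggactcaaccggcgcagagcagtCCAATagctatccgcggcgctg

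Mitotic transcripts were lower in both DWYG groups than in the model, but edgeR called no member in either comparison. The medians lay further from the model at the medium dose, an order that rested on DWYG-H replicate 1. For DWYG-M against the model, 0 of 47 members were called, where 0.00862% of all genes tested were called in either direction and 0% lower. At an unadjusted p under 0.05, 34 of 47 were lower (35 of 49 unfiltered) against 7.22% of all genes tested (6.48% unfiltered). DESeq2, run as an alternative, called 8 members lower, where it called 1.15% of all genes lower: Birc5, Plk1, Kif20a, Cdc20, Cdca3, Tpx2, Racgap1 and Ect2, all mitotic. In 42 of 47 genes both DWYG-M livers were below both model livers (25.6% of all genes tested). Without the filter it was 44 of 49 members and 4384 of all 17164 genes. The unfiltered median log2 difference was -1.37 over the 35 mitotic genes and -0.58 over the 10 S phase genes, against -0.01 over all genes.

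Kif20a, the kinesin that carries the passenger complex to the midzone, was at 0.38 and 0.21 in control liver, 5.38 and 4.49 in model liver, 1.58 and 0.97 at the medium dose and 2.65 and 1.2 at the high dose, with the model above every other liver. In DWYG-M it differed from the model by -1.88 ± 0.40 (SE) on the log2 scale (edgeR adjusted p = 0.213). The corresponding values for genes whose levels are given above were -1.56 ± 0.33 (SE) for Birc5, -1.61 ± 0.52 (SE) for Mki67, -1.06 ± 0.40 (SE) for Cdk1 and -1.89 ± 0.66 (SE) for Ccnb2. S phase and G1 genes differed by less, for example -0.90 ± 0.22 (SE) for Mcm6 and -0.78 ± 0.33 (SE) for Ccnd1. The adjusted p of the genes named here ran from 0.213 to 0.389. Ccnf ran the other way, at 133% of its model mean in DWYG-M. DWYG-M replicate 2 was below DWYG-M replicate 1 in all 35 mitotic genes and was the lowest of the 4 DWYG livers in 30 of them.

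At the high dose the median differences were smaller, an order that rested on replicate 1, and the livers were less alike. For DWYG-H against the model edgeR called 0 of 47 members, and 0% of all genes, while DESeq2 called 0 members and 0.707% of all genes lower. At an unadjusted p under 0.05, 8 of 47 were lower (9 of 49 unfiltered), against 4.99% of all genes tested (850 of 17127 unfiltered). Both DWYG-H livers were below both model livers in 29 of 47 genes (23.2% of all genes tested). Without the filter it was 29 of 49 members and 3882 of all 17164 genes. The unfiltered median was -0.73 over mitotic and -0.34 over S phase genes. The log2 difference was -1.28 ± 0.39 (SE) for Kif20a, -1.16 ± 0.63 (SE) for Ccnb2, -0.76 ± 0.31 (SE) for Birc5, -0.77 ± 0.40 (SE) for Cdk1 and -0.36 ± 0.50 (SE) for Mki67, and outside mitosis -0.73 ± 0.22 (SE) for Mcm6 and -0.90 ± 0.33 (SE) for Ccnd1. The adjusted p of these genes ran from 0.439 (Mcm6) to 0.916 (Mki67). DWYG-H replicate 1 was above replicate 2 in all 35 mitotic genes and within the model range in 12 of them. Replicate 1 was also the higher liver of control in 33 of the 35 and of the model in 27. Without DWYG-H replicate 2 the difference of Mki67 from the model turned to 0.15. Both comparisons use the same 2 model livers, so they are not independent of each other.

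**Figure D4:**
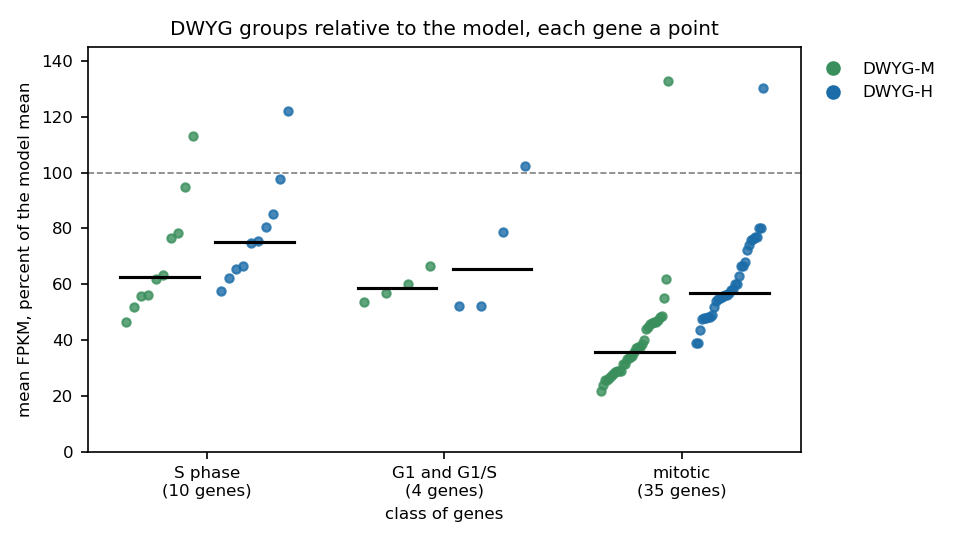
Mean FPKM in DWYG-M (green) and DWYG-H (blue) as a percentage of the model mean, each point a gene and each bar the class median, with the model level dashed at 100. Mitotic genes had medians of 35.6% and 56.9% and S phase genes of 62.6% and 75.1%; the mitotic point above the dashed line in each group is Ccnf.

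The 2 doses were not separated from each other. The DWYG-M mean was below the DWYG-H mean in 46 of 49 genes, but edgeR called 0 of 47 members between them (0% of all genes), and DESeq2 called none either, with 0.0172% of all genes higher. At an unadjusted p under 0.05, 3 of 47 were higher in DWYG-H (7 of 49 unfiltered), against 1.15% of all genes tested (220 of 17127 unfiltered). The median of the 47 was 0.59 higher in DWYG-H, and without DWYG-H replicate 1 it was -0.02. Mki67, with the largest difference of the 47 tested, was at 1.45 and 0.84 at the medium dose and 3.84 and 1.6 at the high dose, without overlap, and differed by 1.25 ± 0.52 (SE) (adjusted p = 1.00). The exceptions to the order of the means were Ccnd1, Ccne1 and Ccnf.

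DWYG-treated livers stood above control for most members. Both livers exceeded both controls in 45 of 47 genes in DWYG-M and in 45 of 47 in DWYG-H, where 49.2% and 46.9% of all genes tested did so. Without the filter it was 46 and 47 of 49 members, against 7289 and 7162 of all 17164 genes. In 26 of 49 genes all 4 DWYG livers lay between the 2 controls and the 2 model livers, 20 of them mitotic, 4 of S phase and 2 of G1. How many of all genes lay in this order was not counted, so the 26 cannot be called particular to the members. Against control, edgeR called 27 of 47 members higher in DWYG-H (6.59% of all genes tested rose), 25 mitotic and 2 of S phase. The mitotic genes left out of that call were Ccnb2, Aurka, Aurkb, Kif4, Nusap1, Nek2, Hmmr and Ccnf, whose levels are given above; without the filter Ccnb2, Aurkb, Nusap1 and Hmmr were called. In DWYG-M, 7 of 47 rose (4.35% of all genes tested): Top2a (1.78 ± 0.40 (SE)), Cdk1 (2.43 ± 0.47 (SE)), Birc5 (1.99 ± 0.40 (SE)), Plk1 (2.88 ± 0.66 (SE)), Cdca8 (1.98 ± 0.45 (SE)), Mcm6 (1.08 ± 0.24 (SE)) and Rrm2 (2.07 ± 0.39 (SE)). In DWYG-H, a comparison with the same control livers, their values were 2.51 ± 0.40 (SE), 2.72 ± 0.47 (SE), 2.80 ± 0.39 (SE), 3.61 ± 0.65 (SE), 2.14 ± 0.45 (SE), 1.24 ± 0.24 (SE) and 2.33 ± 0.39 (SE) in that order. Unfiltered, 17 of 49 rose in DWYG-M and 32 of 49 in DWYG-H, where 4.06% and 5.79% of all genes rose. These calls rest on few livers. All or nearly all were lost without control replicate 1, control replicate 2 or replicate 1 of the DWYG group. Most were kept without its replicate 2. Calls over all genes also fell in each of these fits, which leave 1 liver in a group. The log2 fold changes of the called genes stayed above 0 with any 1 library left out. They ran from 0.80 (Mcm6) to 3.35 (Plk1) in DWYG-M and from 1.07 (Mcm6) to 5.10 (Prc1) in DWYG-H.

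Other genes of the same machinery were read from 9 lists, to be set beside the 15.1% of all genes tested that rose in the model, the 7.12% that fell and the 12.9% that rose in the unfiltered fit. Of 16 other spindle and cytokinesis genes tested, 15 rose in the model (median 3.07; unfiltered 22 of 24, median 3.02), among them the kinase Pbk, and the one not called was Kif5b, a cargo kinesin. Of 18 other kinetochore and checkpoint genes 7 rose (median 1.78; unfiltered 11 of 23, median 1.94), and the most abundant, Zwint and Hjurp, differed by -0.00 and -0.03 and were not called. Of 15 condensin, cohesin and separase genes 7 rose and 1 fell (median 0.27). Without the filter 10 of 18 rose with a median of 1.21, Sgo1, Sgo2a and Espl1 being added. The one that fell was Pttg1 (securin), at 51 and 44.6 in control liver and 32 and 35.6 in model liver, with a log2 change of -0.77 ± 0.21 (SE) (adjusted p = 0.0357), a call lost with any of 4 libraries left out. Rad21, the most abundant cohesin gene, was not called. Of 27 replication fork and nucleotide genes 7 rose and 1 fell (median 0.45; unfiltered 7 of 28 rose, median 0.41): Lig1, Rrm1, Uhrf1, Dnmt1, Chaf1a, Chaf1b and Pold3 were higher and the polymerase subunit Pold2 lower (-0.72 ± 0.21 (SE), lost with any of 4 libraries left out), while Rfc2 and Rpa3 were not called.

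Of 14 origin licensing genes tested, 1 rose and 1 fell (median 0.04), where 15.1% and 7.12% of all genes did. Over all 20 genes of the list, in the unfiltered fit, 3 rose and the median was 0.45, the additions being Cdc6, which loads the MCM helicase, and Ticrr, which helps fire origins. The riser was Gins2, a subunit of the replicative helicase, at 0.7 and 0.49 in control liver and 5.1 and 3.78 in model liver (2.61 ± 0.50 (SE), adjusted p = 0.0103, 0.0802 at most without 1 library). Mcm10, which helps fire origins, was the faller and was at 21.1 and 24.3 in control liver, 6.96 and 6.44 in model liver, 7.57 and 12.6 at the medium dose and 8.2 and 6.31 at the high dose. Every liver given DEN and CCl4 was below both controls, and Mcm10 fell in the model, with a log2 change of -2.04 ± 0.27 (SE) (adjusted p = 0.00247), a call kept with any 1 library left out. Gins4 was not called. Among RB, E2F and MuvB factors, 17 tested, 2 rose and 2 fell (median -0.14), shares near those of all genes; unfiltered, 3 of 19 rose (median -0.15), with the MYB relative Mybl2 added. The RB relative Rbl1 rose by 1.34 ± 0.20 (SE) and the MYB relative Mybl1 by 4.80 ± 0.82 (SE), with Mybl1 at 0.17 and 0.07 in control liver and 6.26 and 1.67 in model liver, highest in model replicate 1, and its call lost without control replicate 2 (adjusted p = 0.0609). The MuvB subunit Rbbp4, also part of other chromatin complexes, was at 44.7 and 36.4 in control liver and 25.1 and 22.8 in model liver and fell, with a change of -1.03 ± 0.15 (SE); Rbl2, the RB relative of quiescent cells, also fell (-0.58 ± 0.14 (SE)). The Rbl2 call was lost without 3 of the 4 libraries (adjusted p up to 0.106). Tfdp1 was not called.

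CDK inhibitors, which hold the cycle in check, were called higher in 6 of 8 cases and lower in none (median 2.78), with or without the filter, against 15.1% and 7.12% of all genes tested. Cdkn1a (p21) was at 2.16 and 1.34 in control liver, 69.4 and 42.6 in model liver, 57.3 and 8.33 at the medium dose and 59.3 and 27.5 at the high dose. DWYG-M replicate 2, the liver with the lowest mitotic level of the 6 given DEN and CCl4, was also lowest of them for Cdkn1a. Cdkn1a rose by 4.71 ± 0.90 (SE) (adjusted p = 0.0100), and lost its call without either control liver (adjusted p up to 0.0837). Cdkn2b (p15) was at 0.16 and 0.11 in control liver, 7.41 and 20.5 in model liver, 13 and 4.62 at the medium dose and 8.63 and 9.76 at the high dose and rose by 6.45 ± 0.93 (SE) (adjusted p = 0.00347), whichever library was left out. Like Ccnd1 and Ccne1, Cdkn2b was highest in model replicate 2. Cdkn2a rose by 4.04 ± 0.98 (SE), Cdkn2c by 1.22 ± 0.22 (SE), Cdkn1c by 1.52 ± 0.39 (SE) and Cdkn3, a phosphatase of CDKs, by 4.75 ± 0.69 (SE). The calls of Cdkn2a, Cdkn2c and Cdkn1c were lost without either control liver, and that of Cdkn3 was kept. Without model replicate 2 the calls of Cdkn2a and Cdkn1c were lost too. With any 1 library left out, the log2 changes of the 3 genes that lost calls ran from 1.10 (Cdkn2c) to 4.58 (Cdkn2a). Of 14 other cyclins, CDKs and CDC25 genes, 4 rose (median 0.35): Cdk6 (0.82 ± 0.19 (SE)), Cdc25b (1.51 ± 0.41 (SE)), Pkmyt1 (2.18 ± 0.40 (SE)) and Cdc25c, listed at 0 and 0.04 FPKM in control and 1.17 and 1.35 in the model. Cdk4 and Cks2, the most abundant, were not called. Among checkpoint and repair genes Brca1 (2.66 ± 0.39 (SE)) and Chek2 (1.17 ± 0.31 (SE)) rose, and Atr was not called. The calls of Cdk6, Cdc25b, Pkmyt1 and Chek2 were lost without either control liver. Without model replicate 2 those of Cdk6, Cdc25b and Chek2 were lost too, and without model replicate 1 that of Chek2. With any 1 library left out, the log2 changes of these genes ran from 0.64 (Cdk6) to 2.29 (Pkmyt1).

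**Figure D5:**
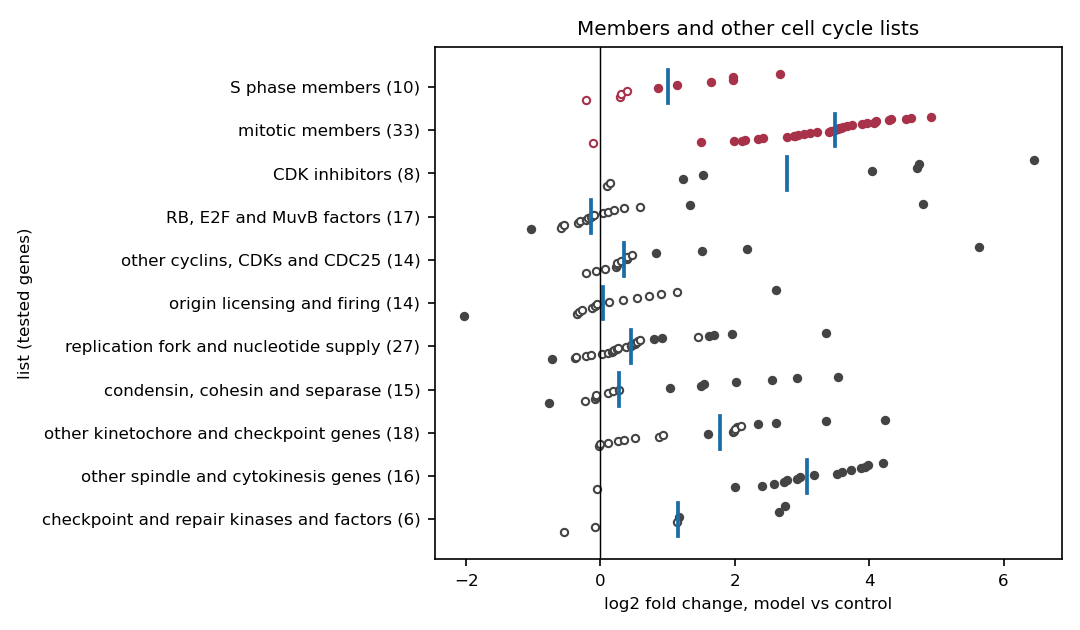
Log2 fold change of model over control for every tested gene of the S phase and mitotic members (red) and of 9 further cell cycle lists (grey); filled points have an adjusted p below 0.05 and blue ticks are medians. Spindle and cytokinesis genes (median 3.07) and CDK inhibitors (2.78) lie far to the right, and origin licensing (0.04) and RB, E2F and MuvB factors (-0.14) are centred near 0; over all 20 origin licensing genes, without the filter, the median is 0.45.

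Markers of other cell types moved with the model as well, in counts to be read against 15.1% of all genes tested that rose and 7.12% that fell. The summed level of 8 cholangiocyte markers was 45.1 to 47.1 FPKM in control, 327 to 468 in the model and 192 to 286 in the DWYG livers, and 6 of 7 tested rose. For 8 stellate cell and fibroblast markers the sums were 99.8 to 101, 287 to 344 and 213 to 266, with 6 of 8 called higher. For 8 neutrophil markers they were 8.09 to 11.99, 55.5 to 202 and 89.2 to 254, with 3 of 5 called higher, and several of these genes were at 0 in control liver. Macrophage markers summed to 165 to 192, 198 to 278 and 177 to 196 (3 higher and 1 lower of 8). Endothelial markers summed to 89.2 to 101, 99.4 to 132 and 105 to 133 (2 of 8 higher). B and plasma cell markers summed to 4.49 to 10.3, 25.0 to 25.9 and 19.7 to 40.3 (2 of 4 higher). T and NK markers stayed at 2.15 to 6.45 except in DWYG-H replicate 2, at 19.9 (0 of 1 tested), erythroid markers at 1059 to 2504 (1 of 6 lower), and the pancreas list had 1 tested gene, Cela1, not called. The part of any of these cells in the rise of the 49 genes was not tested.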

How the data were processed

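RNA was sequenced from 8 liver samples, and libraries were made with a SMART-Seq mRNA kit, per the labels' protocols. The submitters' processing notes name the build GRCm39; no source used here names the aligner, counter, annotation or strand setting, so reads of overlapping or antisense genes cannot be told apart. The deposited table gives, per the file headers, 4 values per gene and library: read counts (estimated counts, of which 89.8% to 91.5% are whole within 0.005), FPKM, TPM and a normalized count, treated here as a signal of unstated scaling that the authors deposited and not used in any test. Another 16 columns of group means were not used.

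Counts were rounded and tested with edgeR 4.0.16 (R 4.3.3): TMM, a quasi-likelihood fit of 4 groups, genes reaching 1 FPKM in 2 or more libraries (11606 of 17164), Benjamini-Hochberg over all genes, threshold 0.05. The fit had 4 residual degrees of freedom, and the common dispersion was 0.0377. Normalization factors ran from 0.842 to 1.26. On counts simulated for model against control, the fit called 40% of genes changed 2-fold, 98% of those raised 4-fold and 100% of those raised 8-fold. The changed genes had at least 5 expected reads in control, and every gene was given the common dispersion. In the data the spread differs between genes, so these shares may be too high for any member. They do not cover members with fewer control reads, such as Ttk, or with a wider spread. DESeq2 1.42.0 and limma 3.58.1 served as alternatives. The members and all lists were chosen with earlier results of these data known. Levels are given liver by liver for the 3 most abundant members of each class, for Mki67, Top2a, Cdk1, Birc5, Ccnd1, Ccne1, E2f1 and Foxm1, and for members whose call departs from their class; other members were named after their values were seen. From the context lists the 2 most abundant genes are named, and calls that number 5 or fewer in a direction. An item of these lists is not reported here. Promoter windows were read from the RefSeq table of GRCm38.p6, a different build from the authors', and gene coordinates of the files were not used.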

Additional observations from a re-analysis of the deposited data

How the results depend on the processing

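In the model against control no member was called lower under any alternative run. The count of 41 members moved to 14 of 18 tested at a minimum of 5 FPKM (2 of S phase, 11 mitotic), and leaving out 1 library gave 18 to 40 members, 2 to 6 of S phase and 16 to 31 mitotic. Over all genes, calls higher in the model against control went from 1756 in the main fit to 894 of 7652 tested at 5 FPKM. Calls over all genes also fell without either control liver or without model replicate 2, and rose without model replicate 1. For DWYG-M against the model DESeq2 called 8 members, 8 of them mitotic. For DWYG-M against control the 7 members became 28 with DESeq2, 17 without the filter, 2 at 5 FPKM, 15 with limma on log2(FPKM + 0.1), 18 with limma on log2(TPM + 1) and 11 in a fit of those 2 groups, and 0 to 11 with 1 library left out. Of these, mitotic genes were 26 with DESeq2, 3 with RLE size factors, 15 without the filter, 1 at 5 FPKM, 3 with limma on log2(FPKM + 1), 13 with 0.1 in place of 1, 14 on TPM and 10 in the 2 groups, and 0 to 9 with 1 library left out; S phase genes were 1 at 5 FPKM, 1 in the 2 groups and 0 to 2. For DWYG-H against control the 27 members became 10 at 5 FPKM (8 mitotic), and 0 to 27 with 1 library left out (0 to 25 mitotic, 0 to 2 of S phase); S phase calls were 4 with limma on log2(FPKM + 0.1), 6 on TPM and 4 in the 2 groups. The mitotic minus S phase level on log2(FPKM + 0.1) was -2.76 in control, -0.91 in the model and -1.73 in DWYG-M. Signs turned for Tk1 (0.015, 0.015 and 0.32 with limma on log2(FPKM + 1), log2(FPKM + 0.1) and log2(TPM + 1)), Ccnf (0.15, 0.18 and 0.42 on the same scales, 0.26 without control replicate 2, 0.07 without model replicate 2, and -0.43 to 0.26 over the libraries left out), Rbl2 (0.015 on TPM), Mki67 in DWYG-H against the model (-1.12 to 0.15, the latter without DWYG-H replicate 2) and the median of DWYG-H against DWYG-M (-0.020 without DWYG-H replicate 1, 1.11 without DWYG-M replicate 1). On TPM the median of all genes was itself 0.50 above control in the model. Over all genes, calls higher in DWYG-M against control were 505 in the main fit, 845 with DESeq2 and 696 of 17127 unfiltered. They were 252 of 7652 at 5 FPKM, 1019 with limma on log2(FPKM + 0.1), 2767 on TPM and 554 in the 2 groups. In DWYG-H against control the main fit gave 765 and the 5 FPKM minimum 377. Limma on log2(FPKM + 0.1) gave 1354, TPM 3301 and the 2 groups 936. With 1 library left out, these counts of the DWYG groups against control fell as well. The cause of these changes was not tested; the 5 FPKM minimum tests fewer genes.

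Whether equal replicate numbers pair the livers is not settled here. Deviations from the group mean correlated between groups at -0.143 to 0.255 over all genes, which cannot decide it with 2 livers per group. In the 35 mitotic genes replicate 1 was above replicate 2 in 33 in control, 27 in the model and 35 in each DWYG group. With the number as a replicate block, DWYG-M against control had 16 members called, 15 mitotic and 1 of S phase. Over all genes, calls higher in that comparison went from 505 to 441. The other member counts stayed within 1.5 times. Low reads limit the mitotic genes in control liver, where Ttk had 3 and 1.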
